A study of Mus musculus with 10 samples.

Results

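The 9 Toll-like receptor genes Tlr1, Tlr2, Tlr3, Tlr4, Tlr6, Tlr7, Tlr8, Tlr9 and Tlr13 were followed through open chromatin of mouse blood progenitors. The assay was ATAC-seq, in which a transposase cuts and tags accessible DNA, and each library was deposited as a list of peaks. Peaks that shared at least 1 bp in any of the 10 lists were joined into 114366 regions. Regions whose centre lay inside one of the 9 genes or within 30 kb of its mm10 span were taken, each counted once. There were 84 such regions, called receptor regions here, and 6 of them lay in the windows of more than 1 receptor gene. Counts for a single one of these receptors take each region at its nearest receptor gene only. A library detected a region if one of its peaks overlapped it, and an undetected region may still be open below the calling threshold.

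The cells came from bone marrow of C57BL/6 mice, were enriched on magnetic beads and then sorted by flow cytometry, with 2 libraries per group. LT-HSC, the long-term hematopoietic stem cells of wild-type mice, were sorted as Lin– CD117+ Sca-1+ CD135– CD48– CD150+, and wild-type lymphoid-primed multipotent progenitors (LMPP) as Lin– CD117+ Sca-1+ CD135+. Wild-type monocyte-dendritic cell progenitors (WT MDP) were Lin– Sca-1– CD117+ IL-7R– CD115+, and wild-type common dendritic cell progenitors (CDP) carried CD115+ and CD135+ with CD117int, and were Lin–, Sca-1– and IL-7R–. The fifth group, IRF8KO MDP, was labelled IRF8-deficient and sorted with the same markers as WT MDP. Its allele, and the age and sex of all mice, are not given in the sources used here. A cell type label of the LMPP libraries names short-term stem cells, and the titles were followed. The wild-type libraries are described as biological duplicates, and no label says which animals the 2 IRF8KO libraries came from, so their spread may be technical.

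Toll-like receptors are membrane proteins of innate immune cells that bind microbial molecules through leucine-rich repeats and signal through a cytoplasmic TIR domain. Tlr1, Tlr2, Tlr4 and Tlr6 encode receptors of the cell surface that recognise lipopeptides or, for Tlr4, lipopolysaccharide. Tlr3, Tlr7, Tlr8, Tlr9 and Tlr13 encode receptors of endosomes, which sense nucleic acids, and most receptors signal through the adaptor MyD88 to NF-kappaB and interferon regulatory factors. Monocytes, macrophages and dendritic cells, which descend from MDP and CDP, are among the main cells that use them. IRF8, which monocyte and dendritic cell development needs, belongs to these interferon regulatory factors and binds DNA with partners such as PU.1.

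The promoter windows of 5 receptors are shown because peaks lay over each and followed different courses. Each window runs 5′ to 3′ from 250 bases before to 50 bases after an annotated transcription start, as RefSeq gives it for GRCm38.p6, and capitals mark the motif matches described next. A peak overlapped the Tlr1 window in both WT MDP libraries and CDP replicate 1 alone. It overlapped the Tlr9 window in the 8 libraries outside LT-HSC, the Tlr8 window in the 6 libraries of WT MDP, CDP and IRF8KO MDP, the Tlr6 window in 7 libraries (all but LT-HSC replicate 1 and the IRF8KO pair), and the Tlr2 window in all 10.
Tlr1 (chr5:64933509-64933808, minus strand): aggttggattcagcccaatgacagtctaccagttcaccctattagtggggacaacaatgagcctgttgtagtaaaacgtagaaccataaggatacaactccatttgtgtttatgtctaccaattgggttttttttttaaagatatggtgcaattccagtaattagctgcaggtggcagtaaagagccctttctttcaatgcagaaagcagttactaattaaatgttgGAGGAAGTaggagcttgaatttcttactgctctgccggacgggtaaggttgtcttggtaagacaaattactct
Tlr9 (chr9:106222348-106222647, plus strand): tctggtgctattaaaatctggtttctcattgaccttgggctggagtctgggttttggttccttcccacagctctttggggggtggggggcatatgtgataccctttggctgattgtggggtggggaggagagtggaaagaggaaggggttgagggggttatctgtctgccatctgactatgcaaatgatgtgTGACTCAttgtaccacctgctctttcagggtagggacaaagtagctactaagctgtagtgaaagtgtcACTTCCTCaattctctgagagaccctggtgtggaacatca
Tlr8 (chrX:167264280-167264579, minus strand): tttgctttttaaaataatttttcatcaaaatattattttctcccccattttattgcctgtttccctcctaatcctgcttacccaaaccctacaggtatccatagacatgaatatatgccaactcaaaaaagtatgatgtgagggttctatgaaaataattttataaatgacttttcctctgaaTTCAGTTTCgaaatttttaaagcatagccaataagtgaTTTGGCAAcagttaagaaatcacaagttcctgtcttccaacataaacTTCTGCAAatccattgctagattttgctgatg
Tlr6 (chr5:64959117-64959416, minus strand): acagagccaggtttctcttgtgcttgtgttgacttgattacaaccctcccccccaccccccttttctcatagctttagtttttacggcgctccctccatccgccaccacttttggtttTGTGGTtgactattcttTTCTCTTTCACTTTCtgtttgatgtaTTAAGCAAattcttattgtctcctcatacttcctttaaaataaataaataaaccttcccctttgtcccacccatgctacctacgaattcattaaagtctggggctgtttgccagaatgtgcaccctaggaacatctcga
Tlr2 (chr3:83841559-83841858, minus strand): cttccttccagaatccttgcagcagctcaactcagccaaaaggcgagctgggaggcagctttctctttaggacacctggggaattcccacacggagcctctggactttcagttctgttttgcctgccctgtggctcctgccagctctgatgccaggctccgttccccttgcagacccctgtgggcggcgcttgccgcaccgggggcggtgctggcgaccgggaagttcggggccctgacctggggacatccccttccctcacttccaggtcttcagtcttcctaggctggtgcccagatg

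The windows were searched on both strands for 6 short motifs, and matches were compared with all 32851 windows of the RefSeq table. GAGGAAGT, the core bound by the myeloid factor PU.1, stood on the printed strand of the Tlr1 window 23 bases before the start, and on the opposite strand of the Tlr9 window 10 bases after it. Of all windows, 3.2% held that motif. GAAANNGAA, an interferon response motif that interferon regulatory factors bind, was found at overlapping positions 115 and 109 bases before the Tlr6 start and 67 bases before the Tlr8 start, both times on the opposite strand, and 8.56% of all windows held it. TTGCNNAA, a C/EBP motif, matched in the Tlr6 window and at 2 places in the Tlr8 window, as well as in those of Tlr3 and Tlr13, against 10.8% of all windows. TGTGGT, the RUNX motif, matched once in the Tlr6 window (16.8% of all windows), and TGANTCA, the AP-1 motif, once in the Tlr9 window (7.81%). GGAANNGAA, a composite motif of ETS factors with interferon regulatory factors, matched in no receptor window and in 8.24% of all. The Tlr2 window held none of these letters, and it had 11 CG dinucleotides where the median window had 7. The Tlr9 window had 0, the Tlr8 window 1, the Tlr1 window 3 and the Tlr6 window 5. RefSeq's table matched 7 of the 9 receptors, with no entry for Tlr4 and Tlr7, and gave Tlr1 and Tlr6 a second window each, neither of which held a match. Such matches describe letters and show no binding.

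The libraries differed in depth and quality in ways that bear on detection. Total tags ranged from 4790046 to 10166833, and the lists held 31325 to 69598 peaks. LT-HSC replicate 1 stood apart with the shortest list and 19.3% of its tags within peaks, against 38.1% to 53.7% in the other 9 libraries. The IRF8KO lists, with 50728 and 54277 peaks, were shorter than those of WT MDP, with 62130 and 64515. Within the span of Irf8 lay 9 regions, of which 6 and 3 were detected in WT MDP and 4 and 5 in IRF8KO MDP, and peaks of this kind do not check a deletion. Stem cell marker genes (5 genes, 113 regions) had 25 and 65 regions detected in LT-HSC, 73 and 81 in LMPP and 35 to 42 in WT MDP and CDP, so the LT-HSC label was not set apart from LMPP by its markers. Monocyte marker genes (5 genes, 60 regions) had 7 to 18 regions detected in LT-HSC and LMPP, 33 and 33 in WT MDP and 45 and 49 in CDP. Within sorted populations, fewer open cells and less open DNA per cell cannot be told apart.

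More receptor regions were detected at each step from stem cells to MDP, and none more from MDP to CDP. Of the 84 regions, the LT-HSC libraries held 23 and 34, the LMPP libraries 49 and 54, the WT MDP libraries 66 and 69, the CDP libraries 67 and 68, and the IRF8KO libraries 53 and 58. The libraries of LT-HSC, LMPP and WT MDP did not overlap in this count, CDP lay within the range of WT MDP, and IRF8KO MDP lay below WT MDP with its lower library inside the LMPP range. The means per library were 28.5 ± 7.78 for LT-HSC, 51.5 ± 3.54 for LMPP, 67.5 ± 2.12 for WT MDP, 67.5 ± 0.707 for CDP and 55.5 ± 3.54 for IRF8KO MDP (SD, n = 2 each). Set beside all merged regions, receptor regions were detected at a similar share in LT-HSC (27.4% and 40.5%, against 26.4% and 44.3% of all regions). In LMPP the receptor shares were 58.3% and 64.3%, which was 4.52 and 9.7 points above the 53.8% and 54.6% of all regions. All regions thus did not overlap between LT-HSC and LMPP either. In WT MDP the receptor shares were 78.6% and 82.1%, which was 26.2 and 28 percentage points above those of all regions, and in CDP the excess was 20 and 25.1 points. In IRF8KO MDP the receptor shares of 63.1% and 69.0% exceeded those of all regions by 20.5 and 23.3 points. All regions also lay lower in IRF8KO MDP, at 42.5% and 45.8%, than in WT MDP, at 52.4% and 54.2%, without overlap.

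**Figure D1:**
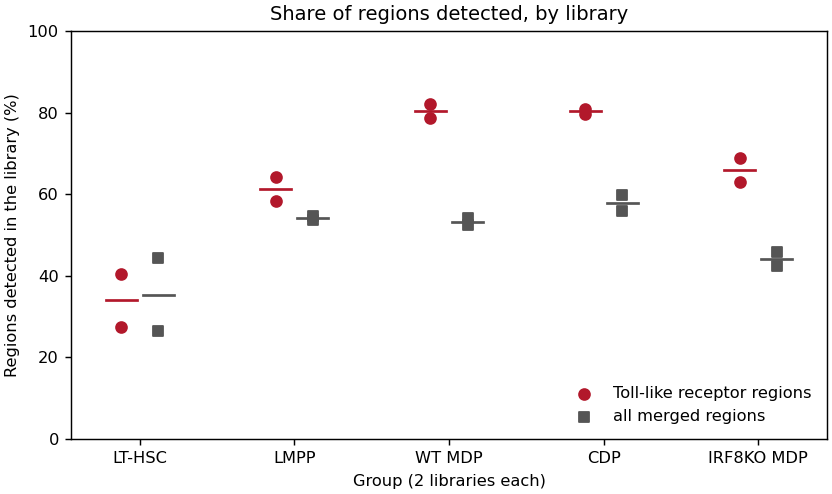
Share of regions detected in each library (vertical axis, percent), by group of 2 libraries (horizontal axis), for the 84 receptor regions (red circles) and all 114366 merged regions (grey squares), with a line at each group mean. Receptor regions sit at 78.6% and 82.1% in WT MDP and at 79.8% and 81.0% in CDP, above all regions in those libraries, whereas in LT-HSC both sets spread over a like range.

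Most receptor regions lay away from gene starts. Of the 84, 20 had their centre inside a receptor gene, 19 lay outside one but inside a neighbouring protein-coding gene, and 45 lay in no protein-coding gene. The neighbours were Fam114a1 beside Tlr6, Fam149a beside Tlr3, Ppm1m, Twf2 and Alas1 beside Tlr9, Prps2 beside Tlr7, Tmsb4x beside Tlr8 and Pgk1 beside Tlr13, and a region inside one of them may serve that gene. Each receptor gene had exactly 1 region over an annotated start or, for Tlr4 and Tlr7 where no start was listed, over a gene end, and it is called the start or end region here, although a single library's peak in it may not reach the start itself. In all 10 libraries, 22 receptor regions were detected (26.2%, against 17.0% of all merged regions). Tlr9 had 7 of these, Tlr8 had 4, Tlr3 and Tlr13 had 3 each, Tlr2 and Tlr6 had 2 each and Tlr4 had 1. Tlr1 and Tlr7 had none. The Tlr6 start region, 1 of the 22, also lay in the Tlr1 window, 26.9 kb from that gene. At the other end, 6 receptor regions were found in exactly 1 library. The edge of the window held few regions: 7 entries lay 28 to 30 kb from their gene and were detected in 8 to 10 libraries, and 4 lay just outside, within 32 kb, in 4 to 10.

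**Figure D2:**
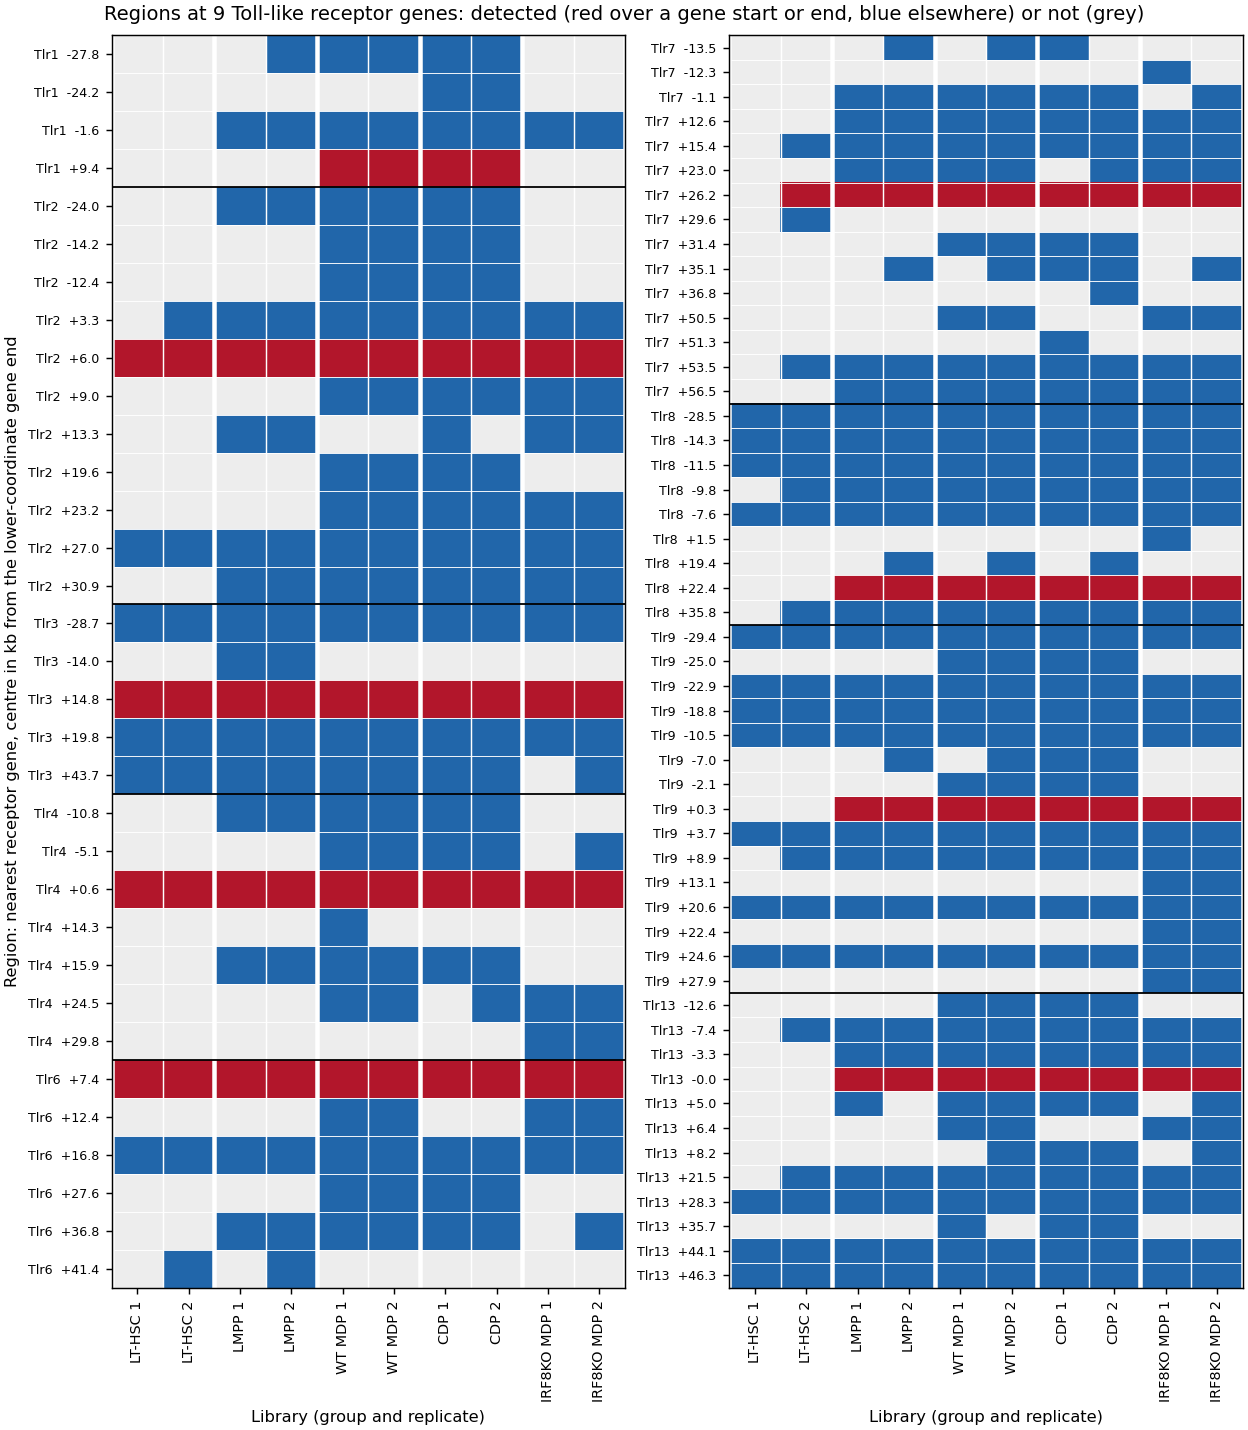
Each row is 1 of the 84 receptor regions, labelled by its nearest receptor gene and the distance of its centre from the lower-coordinate end of that gene in kb, and each column is 1 of the 10 libraries. Filled cells mark detection, red where the region covers a gene start or end and blue elsewhere, and grey marks no peak. The Tlr1 start row is filled in the 4 WT MDP and CDP columns only, and the Tlr2, Tlr3, Tlr4 and Tlr6 rows in red are filled across all 10.

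Among the surface receptors, Tlr4 had the most constant peak at its end. The region chr4:66826914-66829282 (mm10) was detected in all 10 libraries with peak widths from 1617 bp to 2369 bp. In every library this peak stood within the first 5.56% of the list by row position, which is taken here to follow peak strength. Tlr4 encodes the receptor for lipopolysaccharide, and the region covers the lower-coordinate end of the gene. The other 6 Tlr4 regions varied between libraries. A region inside the gene (chr4:66842859-66844080) was found in the 6 LMPP, WT MDP and CDP libraries, with widths of 664 and 631 bp, 627 and 628 bp, and 1153 and 882 bp, and in no LT-HSC or IRF8KO library. A region 10.8 kb below the lower end had the same course, with widths of 501 to 777 bp. Regions 5.1 kb below that end and 5.5 kb above the upper end were gained between LMPP and WT MDP. Both were also found without IRF8, the first in 1 of the 2 IRF8KO libraries and the second in both, at widths of 1392 and 1631 bp.

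Tlr2 encodes the shared partner of Tlr1 and Tlr6 in receptors for lipopeptides, and its 11 regions held more changes than those of any other surface receptor. Detected regions numbered 2 and 3 in LT-HSC, 6 and 6 in LMPP, 10 and 10 in WT MDP, 11 and 10 in CDP and 7 and 7 in IRF8KO MDP. The start region (chr3:83840680-83843811) was found in all 10 libraries. Its widest peak measured 1018 and 1174 bp in LT-HSC, 1135 and 1115 bp in LMPP, 3131 and 1090 bp in WT MDP, 2197 and 1849 bp in CDP, and 1043 and 1198 bp in IRF8KO MDP. The CDP peaks were wider than all LT-HSC, LMPP and IRF8KO peaks, while the WT MDP libraries fell on both sides of them. Between LMPP and WT MDP 5 of the 11 Tlr2 regions were gained, at 14.2 and 12.4 kb downstream and 3.5, 14.0 and 17.7 kb upstream. Of all merged regions with a peak in any of those 4 libraries, 12.9% were gained. With each list shortened to its first 31325 rows, the Tlr2 regions 3.5 and 14.0 kb upstream were still called. The regions at 14.2, 12.4 and 14.0 kb were found in the 4 WT MDP and CDP libraries and nowhere else, whereas those at 3.5 and 17.7 kb upstream were found in both IRF8KO libraries too. A region 24.0 kb downstream was open from LMPP to CDP and undetected without IRF8. The region 7.7 kb upstream ran the other way, with a 501 bp peak in both LMPP and both IRF8KO libraries, in neither WT MDP library and in 1 CDP library. Its LMPP and IRF8KO peaks stood at 84.6% to 96.8% of their lists by row position.

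Tlr1 and Tlr6 lie side by side on chromosome 5 and encode the alternative partners of the Tlr2 protein. The Tlr1 start region (chr5:64933249-64934822) was detected with widths of 1183 and 501 bp in WT MDP and 1482 and 660 bp in CDP, and had no peak in LT-HSC, LMPP or IRF8KO MDP. The CDP replicate 2 peak did not reach the start. Of the 9 receptors, Tlr1 alone had a start region missing from both IRF8KO libraries. All 4 regions nearest to Tlr1 were absent from LT-HSC, and the region 1.6 kb downstream, which is also in the Tlr6 window, was present from LMPP on with and without IRF8. Tlr1 had 4 and 4 regions detected in CDP and 1 and 1 in IRF8KO MDP. Tlr6 differed in having a start region (chr5:64958949-64962048) and a region near its upper end in all 10 libraries. The widest peak in the Tlr6 start region was 630 and 1199 bp in LT-HSC, 1073 and 1037 bp in LMPP, and 2709 and 1143 bp in WT MDP. It was 2839 and 3100 bp in CDP and 1049 and 2168 bp in IRF8KO MDP, so the CDP peaks were wider than all the others. The peak over an annotated start was narrower than that in LT-HSC replicate 2 (1110 bp), and in WT MDP replicate 2 and IRF8KO replicate 1 (501 bp each). No peak of LT-HSC replicate 1 reached either of the 2 annotated Tlr6 starts, and in both IRF8KO libraries a peak reached the second but not the first. A region 9.8 kb upstream of Tlr6, inside Fam114a1, was found in the 4 WT MDP and CDP libraries alone.

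Among the endosomal receptors, peak widths at the Tlr9 start set WT MDP and CDP apart from LMPP and IRF8KO MDP. Tlr9 encodes the receptor for unmethylated CpG DNA. Its start region (chr9:106221761-106224020) had no peak in LT-HSC, and its peak measured 1082 and 1237 bp in LMPP, 1926 and 1572 bp in WT MDP, 1932 and 2232 bp in CDP and 927 and 631 bp in IRF8KO MDP. Every WT MDP and CDP peak was wider than both LMPP peaks, and both IRF8KO peaks were narrower than all 6 wild-type ones. The mean width was 1749 ± 250 bp in WT MDP and 779 ± 209 bp in IRF8KO MDP (SD, n = 2 each). The exact two-sided permutation test gave p = 0.333, the smallest that 2 libraries against 2 can give. That test gave the same p for the Tlr4 end and the Tlr3 start, which were wider without IRF8. Their means went from 1788.5 to 2081 bp and from 721.5 to 1051.5 bp. Regions 2.1 kb and 25.0 kb upstream of Tlr9, the second inside Ppm1m, were found in the WT MDP and CDP libraries alone. The 2.1 kb region had widths of 501 and 1354 bp in WT MDP and 1041 and 864 bp in CDP. In IRF8KO MDP 3 other regions appeared that no wild-type library held, at 8.8 and 18.1 kb downstream inside Alas1, a gene of heme synthesis, and at 23.6 kb downstream. Thus Tlr9 had 12 regions in each IRF8KO library and 11 and 12 in WT MDP, with different regions making up the count. Those 3 were among 4 receptor regions found in both IRF8KO libraries alone (4.76%, against 1.76% of all merged regions). Their peaks stood at 57.6% to 97.9% of the lists by row position. With the MDP lists kept to their first 50728 rows the 8.8 kb region was not called as gained, and at 31325 rows none of the 3 was.

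Tlr7 and Tlr8 are neighbours on the X chromosome and encode related receptors, Tlr7 for single-stranded RNA. The Tlr7 region over the upper gene end (chrX:167328216-167330879) was found in every library but LT-HSC replicate 1, with a widest peak of 501 bp in LT-HSC replicate 2, 765 and 994 bp in LMPP, 2285 and 630 bp in WT MDP, 628 and 901 bp in CDP, and 1537 and 1637 bp in IRF8KO MDP. Those widths overlapped between all groups that had 2 peaks, except that both IRF8KO peaks were wider than the LMPP and CDP peaks. The peaks of WT MDP replicate 2 and CDP replicate 2 did not reach the gene end itself. In both LMPP libraries and CDP replicate 1 the peak over that end was 501 bp wide, and the widest peak was another. A region 4.3 kb above that end had peaks of 626 to 630 bp in the 4 WT MDP and CDP libraries and none elsewhere. Inside Tlr7 a region 12.6 kb from the lower end and 1 at 23.0 kb were gained in LMPP, and so were regions 1.1 kb below the lower end and 29.3 kb above the upper end, within Prps2. The Tlr8 start region (chrX:167262454-167264537) was absent from LT-HSC and measured 655 and 501 bp in LMPP, 1022 and 932 bp in WT MDP, 1249 and 835 bp in CDP and 928 and 2006 bp in IRF8KO MDP. The LMPP peaks in this region did not reach the start itself. This was the only Tlr8 region gained or lost in any comparison, and Tlr8 lost none without IRF8, with 7 and 8 regions in WT MDP and 8 and 7 in IRF8KO MDP.

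Tlr3, whose product binds double-stranded RNA, had 1 region gained from LT-HSC to LMPP and the same 1 lost from LMPP to WT MDP, and none called in the other comparisons. Its start region (chr8:45409581-45411447) was found in all 10 libraries, as were regions 4.4 kb upstream and 28.7 kb downstream, and each library held 3 to 5 of the 5 Tlr3 regions. The start peak was narrow in LT-HSC (646 and 893 bp) and in WT MDP (815 and 628 bp), and wide in LMPP (1645 and 1463 bp) and CDP (1778 and 1665 bp), with IRF8KO MDP between (901 and 1202 bp). LMPP and CDP widths thus did not overlap those of the other 3 groups. The region gained and then lost, 14.0 kb downstream inside Fam149a, was found in the LMPP libraries and no others. Tlr13 encodes a mouse receptor for bacterial ribosomal RNA. Its start peak (chrX:106142898-106143607) was absent from LT-HSC and held the caller's commonest width of 501 bp in all but 1 of the 8 other libraries, CDP replicate 2 having 655 bp. The region 12.6 kb upstream of Tlr13 (chrX:106129753-106131527) was the widest of those restricted to WT MDP and CDP, at 1587 and 1499 bp in WT MDP and 1671 and 1591 bp in CDP.

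**Figure D3:**
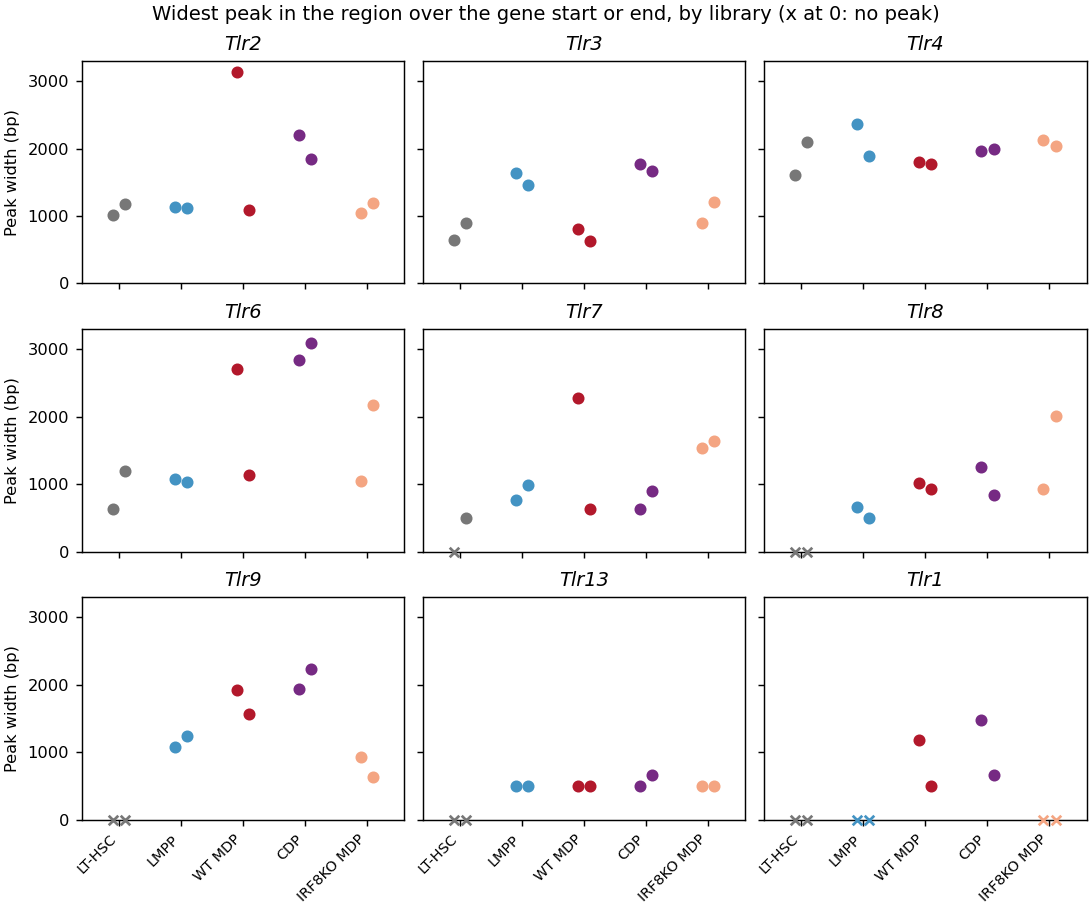
Width in bp of the widest peak within the merged region that covers the start or end of each receptor gene, by library, with 1 panel per gene and 2 points per group. Crosses at 0 mark libraries without a peak. The Tlr9 peaks of WT MDP and CDP, 1572 to 2232 bp, lie above those of LMPP and of IRF8KO MDP, and Tlr1 has points in WT MDP and CDP only.

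The step from LT-HSC to LMPP asks what opens as stem cells become lymphoid-primed progenitors. Gained regions are those with a peak in each library of the later group and in none of the earlier one, lost regions are the reverse, and tested regions have a peak in any of the 4. Of 56 receptor regions tested, 16 were gained (28.6%, against 18.5% of all merged regions tested) and 0 were lost (against 2.37%). Every one of the 9 receptors gained at least 1, with 4 at Tlr7, 3 at Tlr2 and 2 each at Tlr4 and Tlr13. Start regions of Tlr8, Tlr9 and Tlr13 were among them, although the LMPP peaks at Tlr8 did not reach the start. The LMPP peaks at the Tlr13 start were 501 bp wide and stood at 96.2% and 96.0% of the list by row position. LMPP libraries held 23.0 more receptor regions than LT-HSC on average (exact two-sided permutation p = 0.333, the smallest possible). The count changed with list length. With each list shortened to its first 31325 rows, the length of LT-HSC replicate 1, 8 were gained and 4 lost of 38. Those shares were 21.1% and 10.5%, against 11.3% and 9.12% of all regions. Of the 16, 5 were still called, the Tlr9 start among them but not those of Tlr8 and Tlr13. Without LT-HSC replicate 1, 16 were gained (28.6%, against 19.1% of all regions). Without LT-HSC replicate 2, 25 were gained (45.5%, against 37.2% of all regions).

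From LMPP to WT MDP, where cells commit to the monocyte and dendritic lineages, 16 of 74 tested receptor regions were gained and 2 were lost. The shares were 21.6% and 2.7%, against 12.9% and 13.4% of all merged regions, so receptor regions were gained far more often than lost while all regions were gained and lost about equally. The gained regions lay at 7 receptors, 5 at Tlr2, 2 each at Tlr4, Tlr6, Tlr7, Tlr9 and Tlr13 and 1, the start region, at Tlr1. Tlr3 and Tlr8 gained none. Those of Tlr6 and Tlr13 inside the genes, 12.4 and 6.39 kb from the lower end, and that of Tlr7 inside Prps2 were later lost between WT MDP and CDP. WT MDP libraries held 16.0 more receptor regions than LMPP (exact two-sided permutation p = 0.333, the smallest possible). The lists were of like length, and with all 4 kept to 62130 rows the count was 17 gained and 2 lost of 73. At 31325 rows, 8 of 46 were gained, 17.4% against 14.9% of all regions, and 4 of the 16 and 0 of the 2 lost were still called.

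Peaks present in all 4 libraries changed width in both directions. Of 46 such receptor regions, 13 (28.3%) had both WT MDP peaks wider than either LMPP peak, against 20.1% of all merged regions, and 8 (17.4%) had both narrower, against 25.8%. The 13 wider ones included the start regions of Tlr6, Tlr8 and Tlr9, the region 1.6 kb downstream of Tlr1, and 2 regions inside Tlr7. Each width is that of the widest peak in the region, which need not cover the start. Over the first annotated Tlr6 start the peak measured 1073 and 1037 bp in LMPP and 501 bp in WT MDP replicate 2. At Tlr8 the LMPP peaks did not reach the start. The 8 narrower ones included the Tlr4 end and the Tlr3 start. At Tlr9 the region 22.9 kb upstream measured 1651 and 1404 bp in LMPP and 1947 and 1927 bp in WT MDP. The region 4.6 kb downstream of Tlr9 measured 887 and 938 bp in LMPP and 2377 and 2653 bp in WT MDP.

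Between WT MDP and CDP few receptor regions were called in the full lists. Of 75 tested, 1 was gained (1.33%, against 8.8% of all merged regions), 24.2 kb downstream of Tlr1, and 3 were lost (4.0%, against 4.94%), the regions inside Tlr6 and Tlr13 and the Tlr7 region within Prps2. The mean count was 67.5 in both groups (exact two-sided permutation p = 1.0). The same 1 and 3 regions were called with the 4 lists at 62130 rows. At 31325 rows, 6 of 50 were gained and 4 lost (12% and 8%, against 8.25% and 7.34% of all regions), none of them called in the same direction in the full lists. Without WT MDP replicate 2, 4 were gained (5.33%, against 13.4%). Of 59 receptor regions in all 4 libraries, 18 (30.5%) were wider in both CDP libraries than in either WT MDP library, against 40.2% of all merged regions, and 3 (5.08%) were narrower, against 6.33%. The CDP libraries were the deepest, with 7985428 and 10166833 tags against 5328234 and 5394861 in WT MDP, and the part of depth in peak width was not tested.

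From LT-HSC all the way to CDP, 32 of 73 tested receptor regions were gained (43.8%, against 30.5% of all merged regions) and 0 were lost (against 6.85%). The gain was 4 of 4 tested at Tlr1, 7 of 11 at Tlr2, 3 of 5 at Tlr4, 6 of 11 at Tlr13, 4 of 12 at Tlr9, 5 of 13 at Tlr7, 2 of 5 at Tlr6, 1 of 8 at Tlr8 and 0 of 4 at Tlr3. CDP libraries held 39.0 more receptor regions on average (exact two-sided permutation p = 0.333, the smallest possible). With lists at 31325 rows, 18 were gained and 6 lost of 49, against 21.3% and 18.0% of all regions.

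**Figure D4:**
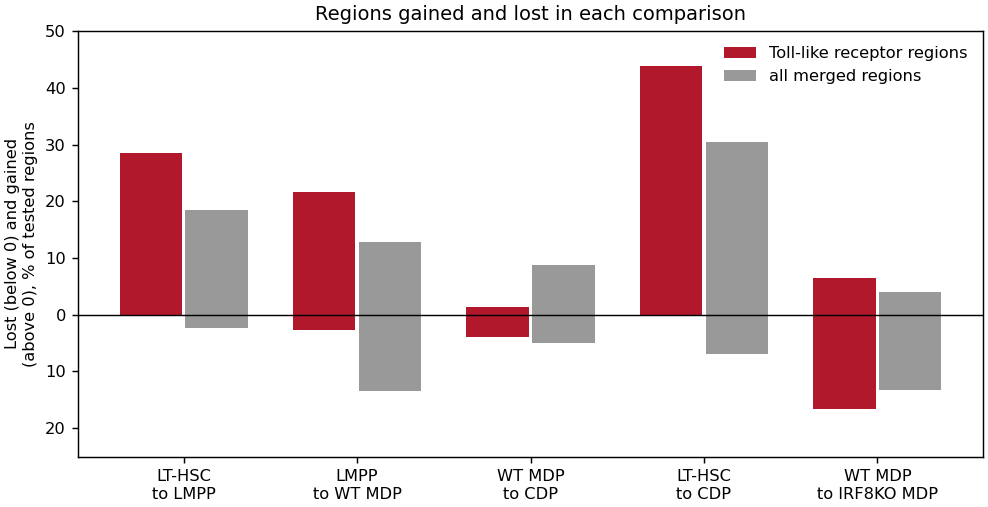
Percent of tested regions gained (above 0) and lost (below 0) in each of the 5 comparisons, for receptor regions (red) and all merged regions (grey). Receptor regions were gained at 28.6%, 21.6% and 43.8% in the steps from LT-HSC to LMPP, LMPP to WT MDP and LT-HSC to CDP, each above the grey bar, and lost at 16.7% without IRF8.

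Without IRF8, 13 of 78 tested receptor regions were lost from MDP and 5 were gained. The shares were 16.7% and 6.41%, against 13.3% and 3.96% of all merged regions, so both were near the background. The mean fell by 12.0 regions per library from WT MDP to IRF8KO MDP (exact two-sided permutation p = 0.333, the smallest possible). Losses lay at 7 receptors, 4 at Tlr2, 2 each at Tlr1, Tlr4 and Tlr9, and 1 each at Tlr6, Tlr7 and Tlr13. Tlr3 and Tlr8 lost none. Gains were those 7.7 kb upstream of Tlr2, 10.7 kb above the upper end of Tlr4 and the 3 downstream of Tlr9. The lost regions were of middling strength in WT MDP, with row positions from 21% to 91.6% of the list in replicate 1 (median 54.9%) and from 15.1% to 86.4% in replicate 2 (median 51.9%). IRF8KO lists are shorter, and with the 4 lists at 50728 rows 11 of 73 were lost (15.1%, against 9.62% of all regions), 10 of the 13 among them, and the mean difference was -5.0. At 31325 rows the difference turned to 3.0 more regions in IRF8KO MDP, with 4 of 52 lost (7.69%, against 9.97%), namely Tlr2 regions 24.0 kb downstream and 14.0 kb upstream, the region inside Tlr4 and that 4.3 kb above Tlr7.

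Of the peaks kept in all 4 MDP libraries, some were narrower and some wider without IRF8. Of 46 receptor regions, 6 (13%) were narrower in both IRF8KO libraries than in either WT MDP library, against 24.9% of all merged regions, and 8 (17.4%) were wider, against 10.6%. The narrower ones were the Tlr9 start, the region 22.9 kb upstream of Tlr9, 2 regions inside Tlr7, the region 7.4 kb upstream of Tlr13 and that 14.3 kb downstream of Tlr8. The last measured 1897 and 1104 bp in WT MDP and 651 and 627 bp in IRF8KO MDP. The wider ones included the Tlr4 end, the Tlr3 start and the region 17.7 kb upstream of Tlr2. The others lay 4.6, 16.3 and 20.4 kb downstream of Tlr9, 4.3 kb downstream of Tlr13 and 12.6 kb upstream of Tlr8. Marker regions of several cell types were also fewer in IRF8KO MDP. So were all merged regions, with 52.4% and 54.2% detected in WT MDP and 42.5% and 45.8% in IRF8KO MDP. Stem cell marker genes (113 regions) had 42 and 39 regions detected in WT MDP and 22 and 23 in IRF8KO MDP. B cell marker genes (4 genes, 24 regions) had 17 and 16 regions detected in WT MDP and 6 and 10 in IRF8KO MDP. Among them Ms4a1 had 4 and 3 against 0 and 1, and Cd79a 4 and 4 against 3 and 4. Conventional dendritic marker genes (5 genes, 59 regions) had 45 and 45 against 29 and 32. Neutrophil genes (5 genes, 55 regions) were close, at 34 and 35 against 35 and 36. Monocyte genes (5 genes, 60 regions) had 33 and 33 against 30 and 32, and erythroid genes (4 genes, 23 regions) 12 and 13 against 12 and 12. The part of these cell types in the receptor counts was not tested.

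A group of 9 receptor regions had a peak in all 4 WT MDP and CDP libraries and in none of the other 6 (10.7%, against 3.89% of all merged regions). They lay 14.2 and 12.4 kb downstream and 14.0 kb upstream of Tlr2, over the Tlr1 start, 9.8 kb upstream of Tlr6, 25.0 and 2.1 kb upstream of Tlr9, 12.6 kb upstream of Tlr13 and 4.3 kb above the upper end of Tlr7. These 6 receptors include surface and endosomal members, and 2 of the 9 regions lie inside a neighbouring gene. By construction each counts as gained from LMPP to WT MDP and as lost without IRF8, since those comparisons share the WT MDP libraries.

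**Figure D5:**
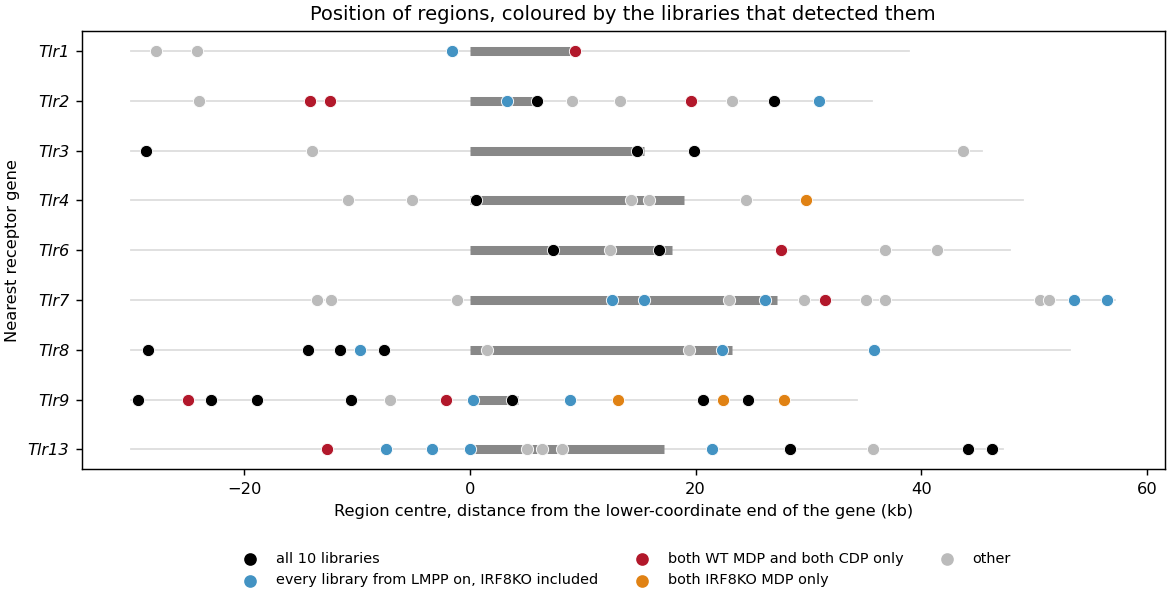
Centre of each receptor region along its nearest gene, as distance in kb from the lower-coordinate end of the gene (horizontal axis), with the gene drawn as a thick bar and the 30 kb margins as a thin line. Colours give the libraries that detected the region, and the 9 red points, detected by the 4 WT MDP and CDP libraries alone, lie at 6 receptors, with 3 at Tlr2 and 2 at Tlr9.

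Regions of surface and endosomal receptors differed in their counts. The 4 surface receptors had 28 regions, of which 17.9% and 25.0% were detected in LT-HSC, 46.4% and 53.6% in LMPP, 85.7% and 82.1% in WT MDP, 82.1% and 82.1% in CDP and 50% and 57.1% in IRF8KO MDP. The 5 endosomal receptors had 56 regions, with 32.1% and 48.2%, 64.3% and 69.6%, 75.0% and 82.1%, 78.6% and 80.4%, and 69.6% and 75.0% in the same order. Surface regions thus started lower in LT-HSC, reached a like share in WT MDP and CDP, and lay lower again without IRF8. From LMPP to WT MDP, 10 of 26 surface and 6 of 48 endosomal regions were gained (38.5% and 12.5%, against 12.9% of all regions). Without IRF8, 9 of 26 and 4 of 52 were lost (34.6% and 7.69%, against 13.3%). Tlr2 alone held 11 of the 28 surface regions, 5 of those 10 gains and 4 of those 9 losses. Regions inside neighbouring genes were counted in both sets, but most of these 19 regions were in the endosomal set. Those of the surface set all lay in Fam114a1, and none was detected in all 10 libraries. In the endosomal set, regions inside Twf2, Alas1, Pgk1, Tmsb4x and Fam149a were detected in all 10. The part of neighbouring genes in these shares was not tested. The difference between the roles was not tested.

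The other genes of the Toll-like receptor pathway, from accessory proteins to target genes, had a larger share of regions gained than all merged regions from LMPP to WT MDP and from LT-HSC to CDP, and a smaller one in the other 3 comparisons. The 52 genes, in 7 lists, had 558 regions within the same distance. Of those tested, 73 of 449 were gained and 25 lost from LMPP to WT MDP (16.3% and 5.57%, against the 12.9% and 13.4% of all regions), and 29 genes had a net gain and 10 a net loss. From LT-HSC to LMPP 48 of 359 were gained and 6 lost (13.4% and 1.67%, against 18.5% and 2.37%), and from WT MDP to CDP 33 of 464 and 12 (7.11% and 2.59%, against 8.8% and 4.94%). From LT-HSC to CDP 159 of 474 were gained and 12 lost (33.5% and 2.53%, against 30.5% and 6.85%). Without IRF8 11 of 431 were gained and 45 lost (2.55% and 10.4%, against 3.96% and 13.3%), with a net gain at 7 genes and a net loss at 24. The lists were uneven in the step from LMPP to WT MDP. Target genes gained 21 regions and lost 2 of 83, accessory proteins gained 16 and lost 5 of 69, and kinases and ligases gained 20 and lost 6 of 105. Inhibitors gained 8 and lost 2 of 56, adaptors gained 3 and lost 8 of 65, and the transcription factors gained 0 and lost 2 of 52.

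The pathway genes named next were picked for the largest net count in a comparison, and their counts are to be read beside the shares of all regions just given. Cd86, a costimulatory molecule induced by receptor signalling, gained 5 of 17 regions from LMPP to WT MDP, 3 of 19 from WT MDP to CDP and 12 of 19 over the whole path. Ly86, which encodes a partner of the receptor-like protein CD180, gained 5 of 12 from LMPP to WT MDP, whereas Cd36, a scavenger receptor that assists Tlr2 signalling, gained 4 of 13 from LT-HSC to LMPP and lost 4 of 12 at the next step. Pik3ap1, an adaptor toward PI3-kinase, gained 5 of 19 and Il12b, a cytokine gene, 3 of 6 from LT-HSC to LMPP. Ticam2, the adaptor that links Tlr4 to TRIF, gained 5 of 13 and Chuk, a kinase of the NF-kappaB pathway, 3 of 8 from WT MDP to CDP. Over the whole path Ikbkb, another such kinase, and Irak2, a kinase downstream of MyD88, gained 7 of 10 and 7 of 17. Without IRF8 Ikbkb lost 5 of 9 regions, Cd40, a costimulatory receptor, 4 of 7 and Nfkb1, an NF-kappaB subunit, 4 of 21, against 13.3% of all regions. Of the remaining receptor genes, Tlr5, the flagellin receptor, had 10 regions and gained 3 of 9 from LMPP to WT MDP, losing none without IRF8. Tlr11 had 5 regions and lost 2 of 3 without IRF8, and Tlr12 had 10 and lost 1 of 7.

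The receptor total over the 10 libraries was set beside the counts of other genes. Of 9558 protein-coding genes with at least 8 regions and a window that touched no receptor window, 798 (8.35%) had a Pearson correlation of at least 0.9 with it, and the median was 0.681. The genes most like it were Dhx9, a helicase gene with 12 regions (r = 0.993), Cotl1, which encodes an actin-binding protein and had 18 (r = 0.99), and Tcp11l1 with 8 (r = 0.988). Dhx9 had 2 and 3 regions detected in LT-HSC, 6 and 7 in LMPP, 9 and 10 in WT MDP, 9 and 10 in CDP, and 7 and 8 in IRF8KO MDP. These correlations run over 10 libraries that every gene shares, list length included, and are given as a description.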

How the data were processed

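ATAC-seq peak lists of 10 libraries were used, 2 per group, grouped by their titles. The submitters' processing notes name Bowtie 1.1.2, HOMER 4.9 and the build mm10 (GRCm38). Per the file headers, peaks were called in each library alone without a control, starting from 500 bp windows spaced by at least 1000 bp, at a false discovery rate of 0.001, with 4-fold enrichment over the local region and at most 1 tag per bp. The deposited score was 1 in every row, and the lists hold no tag counts, so detection, peak width and row position were used. Rows were taken to be ordered by strength, which the lists cannot show. The sources used here do not say whether reads were shifted for the transposase. No blacklist was applied.

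Peaks on chromosomes 1 to 19 and X were merged (median region 752 bp) and assigned to gene spans of RefSeq GRCm38.p6, the assembly of mm10. Each comparison of the number of receptor regions detected used an exact two-sided permutation test over libraries, whose smallest p for 2 against 2 is 0.333. Width is that of the widest peak of a library in a region. Regions called, over gene ends or found in all libraries were named, with the 3 pathway genes of largest net change per comparison and the 3 genes most correlated with the receptor total. Alternatives were equal list lengths, 50% coverage, a 10 kb window, each library left out and a replicate block. The members and lists were chosen with earlier results of these data known. Calls were tested on simulated lists. Python 3.11.15, numpy 2.4.6, pandas 2.3.3 and scipy 1.17.1 were used.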

Additional observations from a re-analysis of the deposited data

How the results depend on the processing

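The difference in receptor regions per library kept its direction under each alternative that was run, except in 1 comparison among the 4 that had a direction. With every list kept to 31325 rows, IRF8KO MDP held 3.0 more regions than WT MDP (main value -12.0), and the number lost was 4. That setting also gave 8 gained and 4 lost from LT-HSC to LMPP, 8 gained from LMPP to WT MDP, 6 gained from WT MDP to CDP, and 18 gained and 6 lost from LT-HSC to CDP. Shortening only the lists of a comparison to its shortest, chosen after seeing the data, gave the same 8 and 4, and 18 and 6, for the pairs with LT-HSC. Requiring a peak to cover 50% of a region gave 6 lost from LMPP to WT MDP, and 4 gained and 5 lost from WT MDP to CDP. The 10 kb window kept 44 regions, with 10 gained from LT-HSC to LMPP, 9 gained and 1 lost from LMPP to WT MDP, 0 gained from WT MDP to CDP, 18 gained from LT-HSC to CDP, and 2 gained and 5 lost without IRF8. Leaving out regions inside other genes, also chosen after seeing the data, kept 65 regions, with 1 lost from LMPP to WT MDP and 3 gained without IRF8. These last 2 settings count fewer regions. For the others the cause was not tested.

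Leaving out 1 library at a time gave 16 to 25 gained and 0 to 1 lost from LT-HSC to LMPP, 17 to 18 and 2 to 3 from LMPP to WT MDP, 2 to 4 and 3 to 5 from WT MDP to CDP, 32 to 41 and 0 to 2 from LT-HSC to CDP, and 5 to 7 and 13 to 18 without IRF8. The differences per library then ranged from 17.5 to 28.5, 13.5 to 18.5, -1.5 to 1.5, 33.5 to 44.5 and -14.5 to -9.5. The 25 came without LT-HSC replicate 2, and the loss of 1 came without LT-HSC replicate 1. From WT MDP to CDP the main count of 1 gained became 2 without WT MDP replicate 1, 4 without WT MDP replicate 2, 2 without CDP replicate 1 and 3 without CDP replicate 2.

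Replicate numbers showed no pairing in detection: the differences between replicates correlated at -0.022 to 0.027 across regions. Such values cannot show whether libraries of the same number were prepared together. With the replicate block the differences were the same (23.0 from LT-HSC to LMPP) and p was 0.5, the smallest it can give, or 1.0 from WT MDP to CDP. With 2 libraries per group no comparison could pass the usual threshold, and a peak list shows no signal below its threshold.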
